A study of Rattus norvegicus with 6 samples.

Results

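Glucocorticoid-responsive genes were followed here through 10 genes chosen by name: Glul, Klf9, Cebpd, Cebpb, Fkbp5, Fkbp4, Sgk1, Tsc22d3, Nfkbia and Hsd11b1. The choice was made with earlier results of these data known. Every probe set whose annotation names 1 of these genes and no other was taken, which gave 16 probe sets for the 10 genes, of 15866 probe sets and 10411 named genes on the array apart from its controls. RNA came from the left ventricle of 3 diabetic rats and of 3 normal rats, each hybridised to its own Affymetrix array. The labels do not give the strain, age, sex, feeding state or hour of sampling, or how and for how long the rats were diabetic, so no treatment shared by the groups can be stated, and no hormone level was measured in these data.

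Glucocorticoids, corticosterone in the rat, enter the cell and bind the glucocorticoid receptor, which is held ready in the cytosol by Hsp90 and its co-chaperones. The bound receptor moves to the nucleus, where it binds glucocorticoid response elements (GREs) and raises or lowers transcription of its targets, many of them lying far from the gene's start. The 10 genes cover several steps: an enzyme that regenerates active hormone (Hsd11b1), co-chaperones of the receptor (Fkbp5 and Fkbp4), transcription factors that are early targets (Klf9, Cebpd and Cebpb), anti-inflammatory targets (Tsc22d3 and Nfkbia), a kinase (Sgk1) and a metabolic enzyme (Glul). Most of them also answer to other signals, such as insulin, cytokines and osmotic stress, so their levels are no measure of the hormone alone.

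Of the 10 genes, 3 rose in diabetic ventricles at one or more probe sets (Glul, Klf9 and Cebpd) and 1 fell (Fkbp4). In whole tissue, a lower signal from fewer cells of a type and one from less RNA per cell cannot be told apart. Fkbp5 and Tsc22d3 were above every normal array in every diabetic array, by 2.29-fold and 1.67-fold in mean signal, but missed the threshold. Cebpb, Sgk1, Nfkbia and Hsd11b1 overlapped between the groups. A change was called where limma's Benjamini-Hochberg adjusted p over all 9519 tested probe sets was under 0.05, and a probe set was tested where its mean log2(signal + 16) lay above the 40th percentile. Of the 16 probe sets, 14 were tested, and 4 rose, 1 fell and 9 did not pass. Over all tested probe sets 2.88% changed, with 1.5% risen and 1.38% fallen. The groups did not overlap at 9 of the 14 probe sets, 8 of them with the diabetic arrays above, against 25.7% of all tested probe sets without overlap, 12.1% with the diabetic arrays above and 13.6% with them below. The median log2 fold change (diabetic minus normal) was 0.66 over the 14 probe sets and -0.01 over all tested ones. With only the brightest tested probe set of each of the 10 genes it was 0.56. Glul, Klf9 and Cebpd each hold more than 1 of the 14, so counts and medians over probe sets weigh these genes more. The 5 calls rest on all 6 arrays together. Without diabetic 1 or diabetic 3 the number called was 2, without normal 1 it was 4 (3 of the 5, and Fkbp5), and without diabetic 2, normal 2 or normal 3 it was 0 by limma, where 8, 9 and 8 of the 14 had an unadjusted p under 0.05, against 16.2%, 17.2% and 15% of all tested probe sets. With all arrays 10 of the 14 did, against 19.9% of all tested probe sets.

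**Figure D1:**
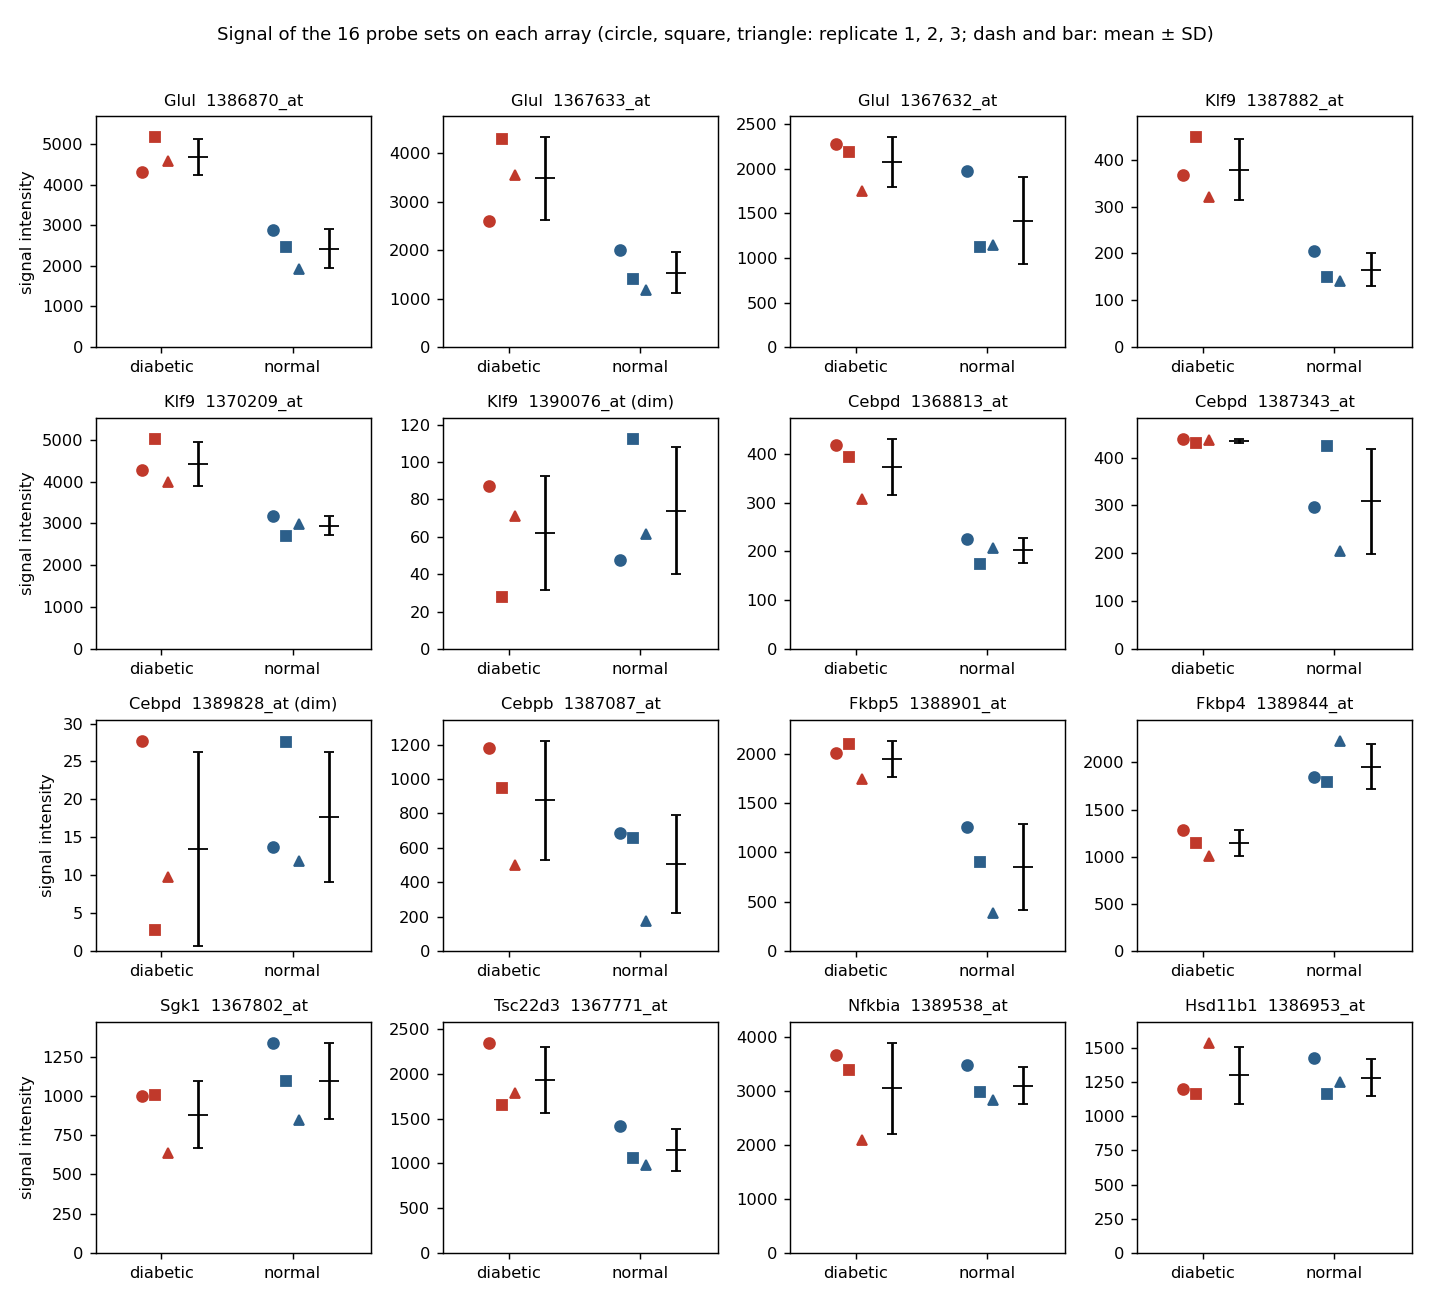
Signal intensity (linear axis from 0) of all 16 probe sets, with diabetic arrays in red on the left and normal arrays in blue on the right of each panel, replicates 1, 2 and 3 as circle, square and triangle, and the mean ± SD (n = 3 per group) beside them. The groups do not overlap for Fkbp5, Fkbp4, Tsc22d3 and both tested Klf9 probe sets, for example, and overlap for Sgk1, Nfkbia and Hsd11b1.

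The members' promoters were read from RefSeq start sites on the GRCr8 build, each window running from 250 bases before to 50 after a start. The table held 13 windows for 8 of the 10 genes, and Cebpd and Hsd11b1 were not matched. Shown are 1 window each of the genes that rose at 2 probe sets or had the smallest p (Glul, Klf9) and of the opposed immunophilins (Fkbp5, Fkbp4), 5′ to 3′ on the gene's strand. Capitals mark every match to a CCAAT box (CCAAT) or a GC box (GGGCGG) on either strand, and in Fkbp4 also a heat shock type repeat (GAANNTTC). A GC box stood in 10 of the 13 windows, against 33.1% of all windows, and the Klf9 window has none. Sgk1, Tsc22d3 and Glul have several windows each, so this count is not one of genes. The GC box holds only G and C. The GC content of the 13 windows ran from 40.7% (1 Sgk1 window) to 81% (Cebpb), with a median of 51.7% over all windows. In the Glul, Klf9, Fkbp5 and Fkbp4 windows shown it was 65.7%, 65.3%, 77% and 63.3%.
Glul, chr13:68575816-68576115, plus strand: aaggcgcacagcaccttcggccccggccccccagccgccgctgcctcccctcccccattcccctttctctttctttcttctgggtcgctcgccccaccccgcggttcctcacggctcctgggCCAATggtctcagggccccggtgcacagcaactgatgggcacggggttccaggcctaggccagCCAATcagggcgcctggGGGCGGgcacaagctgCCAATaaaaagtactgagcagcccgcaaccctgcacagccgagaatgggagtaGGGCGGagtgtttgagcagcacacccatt
Klf9, chr1:230126396-230126695, plus strand: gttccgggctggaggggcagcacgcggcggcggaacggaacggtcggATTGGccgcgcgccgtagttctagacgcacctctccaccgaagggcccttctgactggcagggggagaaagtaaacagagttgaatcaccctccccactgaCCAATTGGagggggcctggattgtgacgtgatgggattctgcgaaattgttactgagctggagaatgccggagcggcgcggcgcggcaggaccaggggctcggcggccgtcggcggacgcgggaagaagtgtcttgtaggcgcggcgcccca
Fkbp5, chr20:6543506-6543805, minus strand: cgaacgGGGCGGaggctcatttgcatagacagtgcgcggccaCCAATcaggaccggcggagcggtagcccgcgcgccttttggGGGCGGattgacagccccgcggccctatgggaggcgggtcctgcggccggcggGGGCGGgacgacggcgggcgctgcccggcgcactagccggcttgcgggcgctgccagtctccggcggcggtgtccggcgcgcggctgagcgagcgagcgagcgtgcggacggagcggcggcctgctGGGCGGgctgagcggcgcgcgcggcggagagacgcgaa
Fkbp4, chr4:163397869-163398168, minus strand: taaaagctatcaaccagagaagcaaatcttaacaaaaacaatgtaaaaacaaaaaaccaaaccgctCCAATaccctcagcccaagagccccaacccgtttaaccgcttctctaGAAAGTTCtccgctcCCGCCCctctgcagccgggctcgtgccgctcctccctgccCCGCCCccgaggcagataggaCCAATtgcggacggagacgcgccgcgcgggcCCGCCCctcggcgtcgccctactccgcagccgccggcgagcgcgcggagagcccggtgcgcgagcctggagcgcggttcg

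None of the 13 windows held the palindromic GRE (AGAACA and TGTTCT with 3 free bases between), a relaxed form of it (GNACA and TGTNC with 3 free bases between) or the half-site AGAACA alone on either strand. These letters occur in 0.0149%, 0.439% and 20.7% of all 33469 rat windows of the same length, and the half-site overlaps the palindrome. Their absence says only that the letters are not in these windows. A CCAAT box stood in 6 of the 13 windows (the 4 shown, the other Glul window and 1 of Tsc22d3), against 37.5% of all windows. The Fkbp4 window was the only one of the 13 with the heat shock type repeat, its first base 137 bases before the start, and 8.59% of all windows have it. The Nfkbia window alone held a kB-type element (GGGA and TCC with 3 free bases between, in 4.09% of all windows), found on the minus strand 31 bases before the start. These matches describe sequence and were not tested for binding.

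Glul encodes glutamine synthetase, which joins ammonia to glutamate and is a classical glucocorticoid-induced gene of skeletal muscle. Its brightest probe set had signals of 4307, 5167 and 4581 in diabetic 1, 2 and 3, against 2893, 2455 and 1924 in normal 1, 2 and 3. Each diabetic array lay above each normal one, and the means were 4685 ± 439 in diabetic and 2424 ± 485 in normal hearts (SD, n = 3 each). This 1.93-fold difference came to 0.96 ± 0.18 on the log2 scale (SE), at a limma adjusted p of 0.0281. The second probe set had 2604, 4301 and 3546 in diabetic arrays, against 2002, 1409 and 1188 in normal arrays. It rose by 1.18 ± 0.24 on the log2 scale (limma adjusted p = 0.0391), again without overlap. The third had 2276, 2193 and 1752 in diabetic arrays, against 1979, 1122 and 1151 in normal arrays. There normal 1 exceeded diabetic 3, and the log2 fold change of 0.59 ± 0.23 did not pass (limma adjusted p = 0.204). All 3 probe sets thus had positive log2 fold changes, and 2 passed. The annotation ties all 3 to the same source sequence, so they are not independent readings. Log2 signals of the 2 that passed followed each other over the 6 arrays (r = 0.978, which the group difference itself feeds). Fits of 5 arrays ended the call of the brightest probe set without diabetic 1, 2 or 3 (limma adjusted p = 0.055, 0.0971 and 0.0799) and without normal 2 or 3 (0.0704 and 0.0887). The second probe set lost its call without diabetic 2 or 3 (limma adjusted p = 0.112 and 0.109) and without normal 2 or 3 (0.0973 and 0.128).

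Klf9 encodes a zinc-finger transcription factor of the Krüppel-like family and is a direct early target of the glucocorticoid receptor. It had the smallest p of the 10 genes, at the dimmer of its tested probe sets. The signals there were 368, 448 and 320.3 in diabetic arrays, against 206, 150.1 and 141 in normal arrays. The means were 379 ± 64.6 in diabetic and 166 ± 35.1 in normal hearts (SD, n = 3 each), a ratio of 2.29. On the log2 scale Klf9 rose by 1.12 ± 0.19 (SE), with a limma adjusted p of 0.0185, and every diabetic array was above every normal one. The call was lost without diabetic 2, normal 2 or normal 3 (limma adjusted p = 0.0692, 0.0633 and 0.0709). At the bright Klf9 probe set the signals were 4264, 5014 and 3999 in diabetic arrays, against 3166, 2699 and 2981 in normal arrays. The groups did not overlap there either, but the log2 fold change was smaller, 0.58 ± 0.15, and did not pass (limma adjusted p = 0.0809). The annotation ties both to the same source sequence, and their log2 signals followed each other over the 6 arrays (r = 0.977, a description that the group difference itself feeds). The third Klf9 probe set was too dim to be tested, with 87.2, 28.1 and 70.9 in diabetic arrays, against 47.8, 112.3 and 61.5 in normal arrays. Its groups overlapped, with an exact permutation p of 0.7 (two-sided, 3 against 3 arrays, where the smallest p is 0.1).

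Cebpd and Cebpb encode C/EBP delta and beta, leucine-zipper transcription factors that glucocorticoids and inflammatory cytokines induce in several tissues. Cebpd at its first probe set had 417, 393 and 307 in diabetic arrays, against 225.5, 174 and 206 in normal arrays. All diabetic arrays were above all normal ones, and Cebpd rose by 0.83 ± 0.17 on the log2 scale (SE, limma adjusted p = 0.0396). The call held in 1 of 6 fits of 5 arrays, the one without diabetic 3 (limma adjusted p = 0.047), and was lost without diabetic 1 or 2 (0.0925 and 0.117) and without normal 1, 2 or 3 (0.0627, 0.108 and 0.113). The second Cebpd probe set read 438, 430.8 and 436 in diabetic arrays, against 296, 424 and 205 in normal arrays. The diabetic arrays were close together there, while normal 2 nearly reached them and normal 3 was far below, and the log2 fold change of 0.53 ± 0.23 did not pass (limma adjusted p = 0.245). Without normal 3 it was 0.28, and without normal 2 it was 0.78. The third was near the low end of the signals, at 2.8 to 27.7 in diabetic and 11.9 to 27.5 in normal arrays, and was not tested (exact permutation p = 0.5, two-sided). Cebpb, with 1 probe set, had 1179, 948.5 and 501 in diabetic arrays, against 688, 656 and 176 in normal arrays. Replicate 3 was the low array of both groups, diabetic 3 lay below normal 1 and 2, and the log2 fold change of 0.90 ± 0.49 did not pass (limma adjusted p = 0.348). Without normal 3 the Cebpb difference was 0.29, and without diabetic 3 it was 1.26.

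Fkbp5 and Fkbp4 encode the immunophilins FKBP51 and FKBP52, which take turns on the receptor-Hsp90 complex. FKBP51 lowers the receptor's affinity for hormone and is itself strongly induced by it, which closes a feedback loop, whereas FKBP52 favours hormone binding and transport to the nucleus. Fkbp5 had 2007, 2096 and 1747 in diabetic arrays, against 1261, 908 and 387 in normal arrays. The lowest diabetic array was thus above the highest normal one, and the normal arrays were spread widely, with normal 3 lowest. The means were 1950.0 ± 181 in diabetic and 852 ± 439.9 in normal hearts (SD, n = 3 each). Its log2 fold change of 1.33 ± 0.36, the largest of the 14 probe sets, did not pass (limma adjusted p = 0.0865), with a 95% interval from 0.52 to 2.14. Without normal 1 it was 1.68 (limma adjusted p = 0.0413), and without normal 3 it was 0.85 (0.106). Fkbp4 went the other way, with 1285, 1144 and 1010 in diabetic arrays, against 1847, 1797 and 2228 in normal arrays. Every diabetic array was below every normal one, with means of 1146 ± 137 in diabetic and 1957 ± 236 in normal hearts (SD, n = 3 each). Fkbp4 fell by 0.76 on the log2 scale (SE 0.16, limma adjusted p = 0.042). With 5 arrays its log2 fold change stayed between -0.85 and -0.67, but no such fit passed, at limma adjusted p = 0.0546, 0.112 and 0.119 without diabetic 1, 2 and 3, and 0.0835, 0.0785 and 0.135 without normal 1, 2 and 3. Each gene has 1 probe set on the array, so neither has a second reading. Of the windows shown above, that of Fkbp4 has the heat shock type repeat, as 8.59% of all windows do, and that of Fkbp5 does not. A link between the repeat and these differences was not tested.

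Tsc22d3 encodes GILZ, a leucine-zipper protein that mediates part of the anti-inflammatory action of glucocorticoids. It had 2346, 1650 and 1785 in diabetic arrays, against 1417, 1062 and 978 in normal arrays. Again no diabetic array fell within the normal range, and the log2 fold change was 0.74 ± 0.20 (95% interval 0.29 to 1.18) without passing (limma adjusted p = 0.0853). Nfkbia encodes IkB alpha, which holds NF-kB in the cytosol and is induced both by glucocorticoids and by NF-kB. It had 3676, 3395 and 2099 in diabetic arrays, against 3493, 2980 and 2846 in normal arrays. Here diabetic 3 was the lowest of all arrays and diabetic 1 the highest, and the log2 fold change was -0.06 ± 0.22 (limma adjusted p = 0.917, 95% interval -0.56 to 0.44).

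Sgk1 encodes a serum- and glucocorticoid-regulated kinase that acts on ion channels, transporters and FoxO factors. It had 997.5, 1009 and 637 in diabetic arrays, against 1338, 1095 and 850 in normal arrays. The groups overlapped, and its log2 fold change of -0.31 ± 0.23 was below 0, unlike those of the tested probe sets of Glul, Klf9, Cebpd, Fkbp5 and Tsc22d3 (limma adjusted p = 0.498, 95% interval -0.83 to 0.21). Hsd11b1 encodes 11-beta-hydroxysteroid dehydrogenase type 1, which regenerates corticosterone from its inactive 11-keto form inside cells. It had 1199, 1159 and 1536 in diabetic arrays, against 1428, 1162 and 1251 in normal arrays. Its log2 fold change was 0.01 ± 0.17 (limma adjusted p = 0.978), with a 95% interval from -0.36 to 0.39 and overlapping groups.

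**Figure D2:**
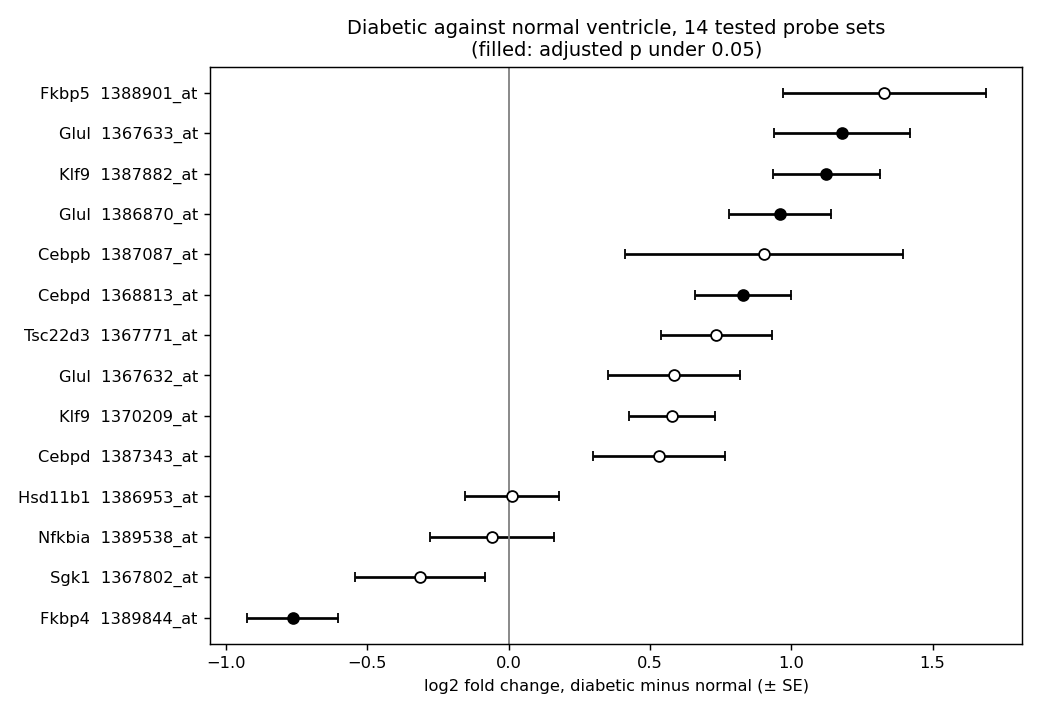
Log2 fold change, diabetic minus normal, with its standard error for the 14 tested probe sets (n = 3 arrays per group), filled where the limma adjusted p was under 0.05. Values run from -0.76 for Fkbp4 to 1.33 for Fkbp5, and 11 of the 14 lie above 0.

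**Figure D3:**
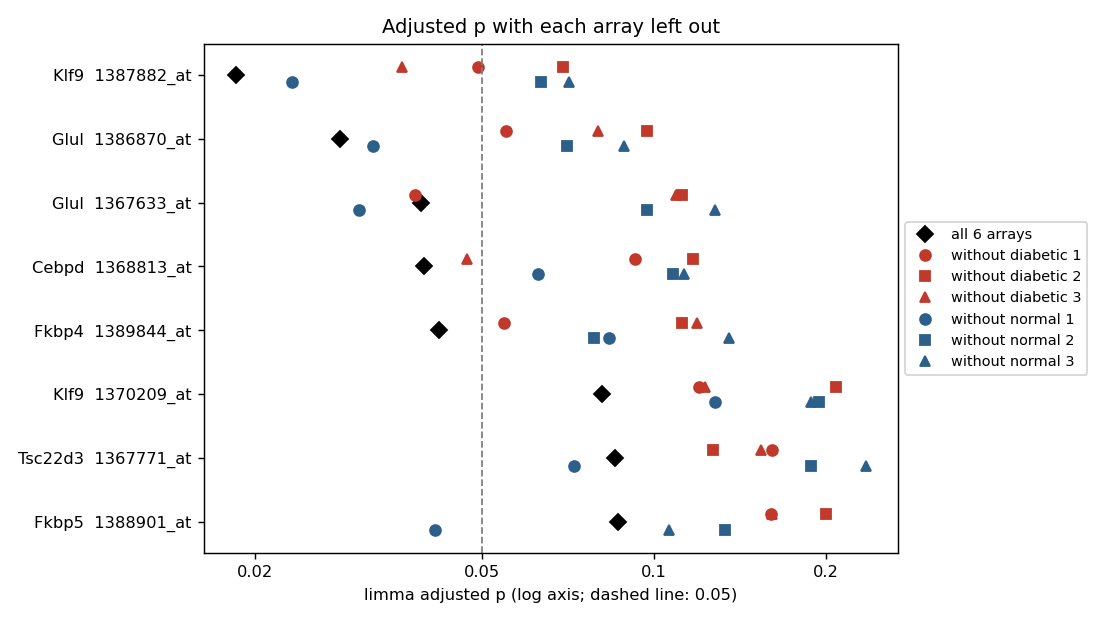
Limma adjusted p (log axis, 0.05 dashed) of the 8 probe sets with the smallest values, from all 6 arrays (black diamonds) and with each diabetic (red) or normal (blue) array left out. Most fits of 5 arrays lie to the right of the dashed line, and the Klf9 probe set at the top, at 0.0185 with all arrays, stayed left of it in 3 of 6.

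Within the groups the 14 probe sets did not vary evenly. Normal 1 was the highest normal array at 12 of them and normal 3 the lowest at 9, while over all tested probe sets these arrays held that place at 32.2% and 34.5%. Among diabetic arrays, diabetic 3 was the lowest at 9 of 14, against 31.2% of all tested probe sets. The exceptions in the normal group were Fkbp4, which was highest in normal 3, and the second Cebpd probe set, highest in normal 2.

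Neither steroid receptor gene was called changed. Nr3c1, the glucocorticoid receptor, had 377, 243 and 418 in diabetic arrays, against 344, 462 and 486 in normal arrays (log2 -0.32 ± 0.22, limma adjusted p = 0.47). The 2 groups overlapped there and for Nr3c2, the mineralocorticoid receptor (log2 0.23 ± 0.18, limma adjusted p = 0.528). H6pd, which supplies the NADPH that Hsd11b1 needs, was at 333, 110.0 and 155 in diabetic arrays, against 97.3, 110.8 and 111 in normal arrays (log2 0.68 ± 0.32, limma adjusted p = 0.281). Its difference was 0.26 without diabetic 1. These were the 3 tested genes of 8 in the list of receptors and steroid activation, where limma called 0 and 0 had an unadjusted p under 0.05, which 19.9% of all tested probe sets had. Hsd11b2, which inactivates corticosterone, lay below the filter. Of 12 tested receptor chaperones limma called 0, and 1 had an unadjusted p under 0.05 (19.9% of all tested probe sets did), with a list median of -0.02 on the log2 scale. Fkbp4, described above, is not in that list. The 1 chaperone with an unadjusted p under 0.05 was Dnaja1, an Hsp40 co-chaperone. It had 1077, 806 and 936 in diabetic arrays, against 1495, 1450.1 and 1543 in normal arrays. The groups were apart, but its log2 fold change of -0.67 ± 0.15 did not pass (limma adjusted p = 0.0557). It passed in 5 alternative fits, at 0.0175 with an intensity trend to 0.0439 with array weights, and its dimmer probe set was at -0.22 (0.609). Stip1, which bridges Hsp70 and Hsp90, was at -0.27 (limma adjusted p = 0.331), and Hsp90ab1, the constitutive Hsp90, at 0.23 (0.417). Of 8 tested receptor coregulators limma called 0 (1 at an unadjusted p under 0.05, against 19.9% of all tested probe sets), with Nr2f2 at 0.37, Med1 at -0.25 and Ppargc1a at 0.13 on the log2 scale (limma adjusted p = 0.183, 0.353 and 0.715).

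Among 23 tested genes of another list of glucocorticoid-induced genes, 2 rose, none fell and 21 did not pass, with a median log2 fold change of 0.32. Over all tested probe sets 1.5% rose and 1.38% fell. This list, like the others, was chosen with results of these data known. Cited2, a transcriptional coregulator that hypoxia also induces, had 3370, 3418 and 3129 in diabetic arrays, against 1618, 1413 and 1383 in normal arrays. It rose by 1.16 ± 0.14 on the log2 scale (limma adjusted p = 0.00618). Sesn1, a stress-induced regulator of mTORC1 that FoxO factors also control, rose by 1.23 ± 0.19 (limma adjusted p = 0.013, lost without diabetic 2 at 0.0589). Muscle atrophy targets gave 4 risen of 8 tested and none fallen, against 1.5% risen and 1.38% fallen of all tested probe sets, with a median of 0.79. Trim63, the ubiquitin ligase MuRF1, had 1868, 2173 and 2320.5 in diabetic arrays, against 1165, 1126 and 1068 in normal arrays (log2 0.91 ± 0.15, limma adjusted p = 0.0158). Its call was lost without diabetic 2 or 3 (0.0635 and 0.0597) and without normal 2 or 3 (0.0531 and 0.063). Eif4ebp1, a repressor of cap-dependent translation, rose by 1.81 ± 0.17 (limma adjusted p = 0.00184), and Bnip3, a mitophagy receptor, by 1.37 ± 0.20 (0.0103). Ctsl, the lysosomal protease cathepsin L, rose by 1.05 ± 0.19 (limma adjusted p = 0.0271, lost without diabetic 2 or 3 or normal 3 at 0.0944, 0.0845 and 0.0714), and its other probe set rose by 1.02.

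Of 8 tested genes of the NF-kB and IkB family limma called 0, and 1 had an unadjusted p under 0.05 (19.9% of all tested probe sets did), with a median of 0.09. Rela, the p65 subunit, was at 0.59 ± 0.21 on the log2 scale (limma adjusted p = 0.159), Relb at -0.33 (0.292) and Chuk, the kinase IKK alpha, at -0.31 (0.318). Of 15 inflammatory genes that glucocorticoids repress, all with a probe set, only Icam1 and Vcam1 passed the filter on dim signals. Icam1, an adhesion molecule, had 309, 379 and 245 in diabetic arrays, against 183, 253 and 131.5 in normal arrays (log2 0.69 ± 0.24, limma adjusted p = 0.157), and Vcam1 was at -0.10 (0.82). The other 13 were too dim to be tested. Among 21 tested relatives of the 10 genes and partners of Sgk1, 2 rose, none fell and 19 did not pass, with a median of -0.13. Of all tested probe sets 1.5% rose and 1.38% fell. Ndrg1, a substrate of the Sgk1 kinase, had 2681, 2420 and 1822 in diabetic arrays, against 877, 636 and 595 in normal arrays. It rose by 1.69 ± 0.20 on the log2 scale (limma adjusted p = 0.00618), while Sgk1 transcript itself was not called. Klf10, a family member of Klf9, rose narrowly by 1.03 ± 0.23 (limma adjusted p = 0.0488), and its call was kept in 1 of 6 fits of 5 arrays (0.0376 without normal 1), with 0.0887, 0.135 and 0.119 without diabetic 1, 2 and 3, and 0.0875 and 0.099 without normal 2 and 3.

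**Figure D4:**
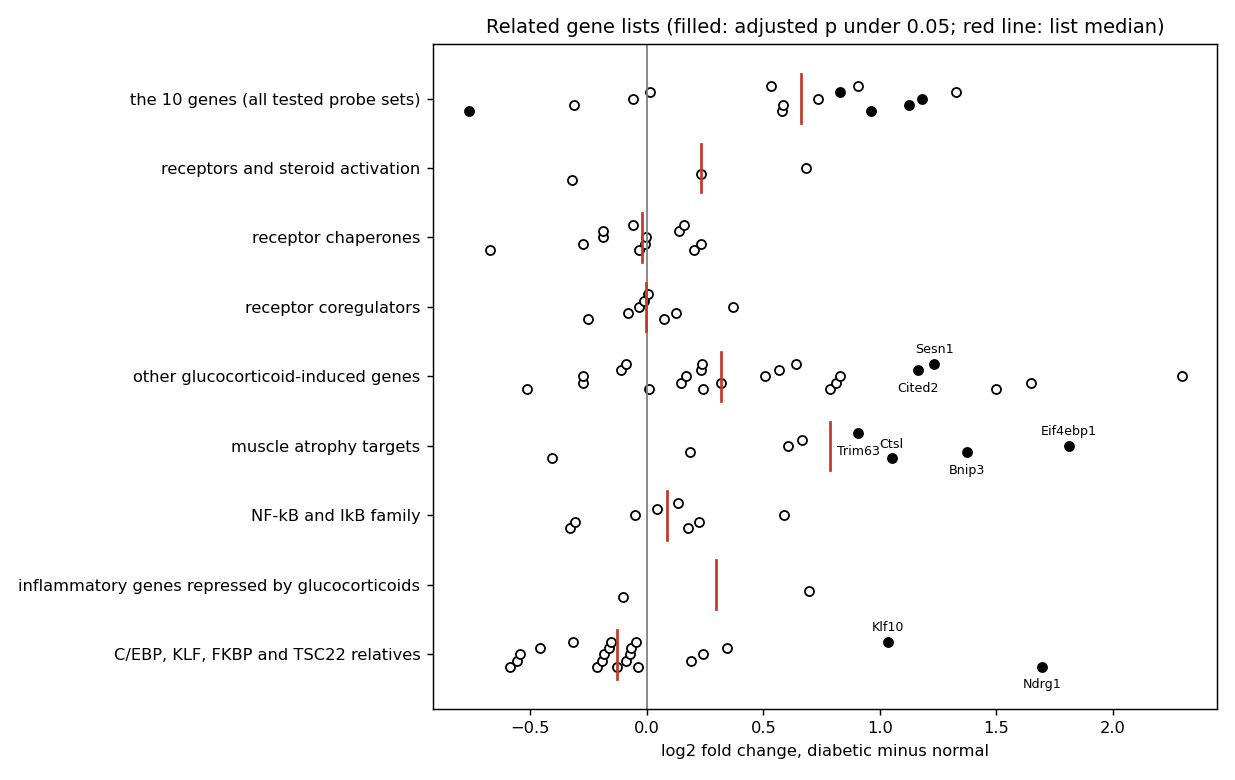
Log2 fold change, diabetic minus normal, of the 14 tested probe sets of the 10 genes and of the genes in 8 related lists (1 point per gene at its brightest tested probe set), filled where the limma adjusted p was under 0.05, with list medians as red lines. The list medians run from -0.13 for relatives to 0.79 for muscle atrophy targets. Those of chaperones (-0.02) and coregulators (-0.003) lie near 0, with single points as far out as Dnaja1 at -0.67 and Nr2f2 at 0.37.

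The probe set most like the Klf9 one with the smallest p, by Pearson's r of log2 signals over the 6 arrays among 8098 tested single-gene probe sets, was that of Tinagl1, a matrix-associated protein (r = 0.999). Rpa2, a subunit of replication protein A, and Dazap2 came next (r = 0.995 for each). These correlations include the difference between groups, 266 probe sets had r above 0.9, and the selection takes the highest of many, so they are given as a description. Tinagl1 rose by 1.86 ± 0.26 on the log2 scale (limma adjusted p = 0.00892), and Rpa2 and Dazap2 did not pass (0.2 and 0.29).

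The tissue label was checked against markers. Ventricular cardiomyocyte genes were bright, with Myl2, the ventricular light chain, averaging 44728 in diabetic and 47118 in normal arrays. All 6 tested genes of that list had log2 fold changes below 0, and 1 fell, Myh6, the alpha-myosin heavy chain, at 16378 in diabetic and 45677 in normal arrays (limma adjusted p = 0.0281). Atrial markers summed to 20566 to 30669 in diabetic and 3871 to 5176 in normal arrays, where 1 of 4 rose, Nppa, the atrial natriuretic peptide precursor that stressed ventricle also expresses. Nppa made up most of that sum. Myl7, Myl4 and Sln overlapped between the groups and were not called (limma adjusted p = 0.922, 0.664 and 0.292). Of 6 fibroblast markers 4 fell (Col1a1, Col1a2, Col3a1 and Lum) and none rose, where 1.38% of all tested probe sets fell. Dcn, the brightest, averaged 14186 in diabetic and 14343 in normal arrays (log2 -0.01, limma adjusted p = 0.982). Pdgfra was at -0.24 (limma adjusted p = 0.562), and both had overlapping groups. Col3a1 averaged 2579 in diabetic and 10058 in normal arrays. Their summed signal ran from 20413 to 21670 in diabetic and from 31878 to 36727 in normal arrays. Adipocyte markers, of a cell type known to express Hsd11b1 and Glul, summed to 1707 to 1924.5 in diabetic and 966 to 1572 in normal arrays over 4 genes. Most of that sum came from Lipe, which heart muscle also expresses. Lipe and Cfd were above 0 but not called (limma adjusted p = 0.209 and 0.365). Lep and Plin1 were too dim to be tested and overlapped between the groups. Lep averaged 26.2 in diabetic and 10.6 in normal arrays, and Plin1 went the other way, at 41.6 and 54.1. Macrophage markers summed to 3280 to 5454 in diabetic and 2756 to 3957 in normal arrays, with 0 of 4 called by limma and 0 at an unadjusted p under 0.05. The 1 tested lymphocyte marker of 7 with a probe set, Cd4, was not called (limma adjusted p = 0.727). Endothelial markers summed to 4004 to 4637 in diabetic and 3974 to 4751 in normal arrays, with 1 of 4 fallen, the receptor Tie1 (log2 -0.94, limma adjusted p = 0.0222). Pecam1 went the other way, with every diabetic array above every normal one, but did not pass (log2 0.68, limma adjusted p = 0.147). Vwf was at 0.26 (limma adjusted p = 0.647) and Kdr at -0.04 (0.932), both with overlapping groups. The Myh6 and Tie1 calls were each kept in 2 of 6 fits of 5 arrays, with limma adjusted p up to 0.0769 without normal 1 for Myh6 and 0.0811 without normal 3 for Tie1. Smooth muscle and pericyte markers summed to 2600 to 3277.5 in diabetic and 3357 to 4315 in normal arrays. Of 4 tested, limma called 0, and 1 had an unadjusted p under 0.05 (19.9% of all tested probe sets did). That was Rgs5, at -0.56 on the log2 scale (limma adjusted p = 0.114). The erythrocyte genes Hbb and Alas2 overlapped between the groups and were not called (limma adjusted p = 0.685 and 0.834). The part that these cell types have in the members' differences was not tested. The ratio of 3′ to 5′ signal, a sign of RNA integrity, was 1.25 to 1.41 in diabetic and 1.18 to 1.34 in normal arrays for Gapdh, and overlapped for beta-actin too (1.23 to 1.61 in diabetic and 1.25 to 1.84 in normal arrays).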

How the data were processed

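The authors deposited 1 linear signal intensity per probe set and array; the software is not given in the sources used here. A mean of 500.2 on each array, after trimming 2% at both ends, shows scaling before deposit, so values were taken unchanged. Of 15866 probe sets apart from 57 controls, the platform annotation gave 12783 a single gene.

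Values became log2(value + 16), which understates fold changes of dim genes. Probe sets whose mean on that scale over the 6 arrays exceeded the 40th percentile were tested (9519). Diabetic minus normal was fitted by limma 3.58.1 (R 4.3.3; lmFit, eBayes, group only), with Benjamini-Hochberg adjustment over all tested probe sets. The code was tested on simulated data. P-values measure the spread between 3 rats per group. Members, lists and tests were chosen with earlier results of these data known. All members are reported. From each list, genes that passed are named, otherwise up to 3 with the smallest p, at their brightest tested probe set. Alternatives changed the pseudocount, filter, scaling, prior, weights, replicate block and arrays used. Promoter sequences are from RefSeq (GRCr8).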

Additional observations from a re-analysis of the deposited data

How the results depend on the processing

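The same 5 probe sets of the 10 genes were called with a pseudocount of 64, quantile or median scaling, a robust prior, array weights, and a filter on linear means, which was chosen after seeing the data. With an intensity trend and no filter 5 were called, without Cebpd (limma adjusted p = 0.0652) and with the bright Klf9 probe set (0.0411). The count was 3 with a pseudocount of 1 (limma adjusted p = 0.0501 for the second Glul probe set and 0.052 for Fkbp4), 8 with an intensity trend (with Fkbp5 at 0.0317, Tsc22d3 at 0.0309 and the bright Klf9 probe set at 0.0226 added) and 6 with a filter at the 60th percentile, which left 2 of the 5 untested (Klf9 and Cebpd), kept 3 and added the bright Klf9 probe set (0.0409), Fkbp5 (0.0487) and Tsc22d3 (0.0452). With no filter 0 were called by limma (8 of 16 at an unadjusted p under 0.05, against 12.6% of all probe sets), 18 probe sets were called in all, and 1 gene of the related lists was, against 8 with the filter. Over all tested probe sets the count of 274 became 437 with the stricter filter and 527 with an intensity trend. Replicate numbers occur in both groups, and the labels do not say whether they pair the arrays. Over all tested probe sets same-numbered arrays hardly deviated together (r = 0.0655, 0.0142 and 0.0158), which cannot settle the pairing. Among the 14, replicate 3 was the lowest array of its group at 9 in both groups. With the replicate number as a block 1 member probe set and 183 in all were called. Cebpb then had a limma adjusted p of 0.0813, and 11 of the 14 had an unadjusted p under 0.05, against 19.3% of all tested probe sets. With each array left out, the counts ran from 0 to 4 for the 10 genes, from 100 to 202 over all probe sets and from 4 to 9 for the related lists. Among the probe sets followed through every alternative (the 14 of the 10 genes and the genes named from the lists), signs turned for 3: Nfkbia ran from -0.21 to 0.19 (above 0 without normal 1, at 0.03, and diabetic 3), Hsd11b1 from -0.11 to 0.0939 (below 0 without normal 2, at -0.05, normal 3, at -0.0007, and diabetic 3), and Vcam1 from -0.21 to 0.0648 (above 0 without diabetic 3). Fits without an array have fewer samples, and otherwise the cause was not tested. Dim signals limit the inflammatory list most, where 13 of 15 genes lay below the filter.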
